A study of Arabidopsis thaliana with 41 samples.

Results

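The genes described here act in the synthesis of very-long-chain fatty acids and of the waxes made from them. They are 10 of the 32865 genes in the RNA-seq tables and were taken by locus identifier: 7 genes of 3-ketoacyl-CoA synthases (KCS1, KCS2, KCS5, KCS6, KCS9, KCS10 and KCS20), the 3-ketoacyl-CoA reductase gene KCR1, and CER1 and CER3, whose products act together in alkane formation. The study compared plants that lack a functional NuA4 histone acetyltransferase with wild type (WT), to ask which nuclear genes depend on this complex. All plants were Arabidopsis thaliana of the Col-0 background, and RNA came from rosette leaves pooled from several plants for each biological repeat.

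Of the 3 mutants, Atepl1-2 carries Cas9-made frameshift deletions in both AtEPL1 genes, which encode a scaffold subunit of the catalytic module. Ateaf1-1 carries a Cas9-made deletion that fuses the tandem genes AtEAF1A and AtEAF1B out of frame. The glk mutant is the glk1-1 glk2-1 double mutant, with transposon insertions in a pair of transcription factor genes that promote chloroplast development. Each genotype was a single line, so an effect of the mutation and of anything else carried by that line cannot be told apart. The 16 libraries carry labels of 2 kinds, and what separates the 2 label sets is not given in the sources used here. Of the WT libraries, replicates 5, 7 and 8 belong to the first label set, together with Atepl1-2 replicates 1, 3 and 4. Everything else belongs to the second, namely WT replicate 4, another Atepl1-2 series with the numbers 1, 3 and 4, and 3 libraries each (numbers 1 to 3) of Ateaf1-1 and glk. Values of single libraries are listed in this order of replicate numbers.

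Very-long-chain fatty acids are made at the endoplasmic reticulum by an elongase whose cycle starts with condensation by a 3-ketoacyl-CoA synthase, the step that sets chain length and substrate choice. Reduction by KCR1, dehydration by PAS2 and a further reduction by CER10 complete each cycle. In the epidermis of leaves and stems the longest acyl chains are turned into alkanes, alcohols and esters, the waxes of the cuticle that limits water loss.

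All 10 genes lie on chromosomes 1, 2 and 5 of the RefSeq annotation of TAIR10.1. KCS1 (AT1G01120) lies at chr1:57164-59215 on the minus strand, KCS2 (AT1G04220) at chr1:1119699-1122786 minus, KCS5 (AT1G25450) at chr1:8938387-8940613 minus and KCS6 (AT1G68530) at chr1:25712414-25715024 minus. KCS9 (AT2G16280) lies at chr2:7050799-7052951 plus, KCS10 (AT2G26250) at chr2:11170416-11173278 minus and KCS20 (AT5G43760) at chr5:17585523-17588733 plus. KCR1 (AT1G67730) lies at chr1:25391338-25393889 plus, CER1 (AT1G02205) at chr1:418416-422579 plus and CER3 (AT5G57800) at chr5:23420184-23424117 plus. CER1 has 5 annotated transcripts and KCS6 has 2, while each of the other members has 1. KCS2 and KCS20 are close relatives and share 25 stretches of 31 bases, which are 1.24% of the 2014 such stretches of KCS2. The other shared stretches made up at most 0.247% of a member (KCS1), so few reads could have been split between copies. KCS2 overlaps the gene AT1G04247 on the opposite strand over 2302 bases, and whether the counting used strand is not given in the sources used here, so the reads of KCS2 and AT1G04247 may not have been told apart.

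The 250 bases before the annotated gene start are printed for the genes whose counts the comparisons turn on most (KCS1, KCS10 and CER1) and for KCS9, from the RefSeq genome TAIR10.1 in the direction of transcription. Capitals mark the L1 box TAAATGCA, an element known from epidermis-expressed promoters, and CCAATC, both read on either strand.
KCS1 (chr1:59216-59465, minus strand): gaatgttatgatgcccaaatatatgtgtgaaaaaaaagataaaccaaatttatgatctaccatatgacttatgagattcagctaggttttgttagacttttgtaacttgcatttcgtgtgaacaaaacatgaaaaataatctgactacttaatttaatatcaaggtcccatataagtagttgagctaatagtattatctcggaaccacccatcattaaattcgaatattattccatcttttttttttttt
KCS9 (chr2:7050549-7050798, plus strand): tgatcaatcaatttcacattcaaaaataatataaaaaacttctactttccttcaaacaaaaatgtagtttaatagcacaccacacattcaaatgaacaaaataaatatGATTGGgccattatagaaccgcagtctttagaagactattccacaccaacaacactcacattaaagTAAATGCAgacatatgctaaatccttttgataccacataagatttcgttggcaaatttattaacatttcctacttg
KCS10 (chr2:11173279-11173528, minus strand): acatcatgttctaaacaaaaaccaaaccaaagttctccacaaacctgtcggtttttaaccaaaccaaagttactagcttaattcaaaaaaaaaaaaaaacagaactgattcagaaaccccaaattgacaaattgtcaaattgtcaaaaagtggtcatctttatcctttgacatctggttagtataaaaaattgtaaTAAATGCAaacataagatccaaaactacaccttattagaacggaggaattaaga
CER1 (chr1:418166-418415, plus strand): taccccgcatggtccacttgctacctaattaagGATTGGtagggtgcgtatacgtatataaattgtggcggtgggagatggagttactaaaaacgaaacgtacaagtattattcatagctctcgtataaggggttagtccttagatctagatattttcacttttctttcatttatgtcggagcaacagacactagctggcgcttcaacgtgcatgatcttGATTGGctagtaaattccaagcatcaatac
The L1 box stood in 2 of the 10 member windows, KCS9 (76 bases before the gene start, counted from its first base) and KCS10 (54 bases), and in 1.57% of the windows of 27443 protein-coding genes. CCAATC stood in KCS9 (142 bases) and in CER1 at 2 places (217 and 30 bases), and in 10.2% of all windows. TAAATGTA (3% of all windows), AACAAAC (11.2%), CACGTG (6.49%) and GCCGCC (1.87%), also read on both strands, were in none of the 10 member windows. These matches describe letters in a window and not binding.

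Libraries of the first label set held 22330141 to 30781762 counts and those of the second 36533765 to 39666320. Chloroplast genes took 40.2 to 65.6% of the counts, with 60.0 to 65.6% in WT, 53.6 to 55.9% in Atepl1-2 of the first set, 44.9 to 54.9% in Atepl1-2 of the second, 40.2 to 50.2% in Ateaf1-1 and 61.4 to 64.5% in glk. Levels are given as CPM, counts scaled to a common library size, after TMM scaling over all 16 libraries, and a gene passed the threshold with an FDR under 0.01 in edgeR's quasi-likelihood test and a change of at least 1.5-fold. GLK1, one of the genes disrupted in glk, stood at 7.59 to 8.59 CPM in glk and 48.3 to 70.1 CPM in WT, while GLK2 did not separate the genotypes (29.6 to 35.9 CPM in glk and 31.1 to 48.0 CPM in WT). Both AtEAF1 genes were lower in Ateaf1-1 than in every WT library (EAF1A at 6.59 to 9.63 CPM against 10.9 to 15.7 CPM, EAF1B at 9.77 to 10.8 CPM against 14.4 to 20.2 CPM), without passing (edgeR FDR 0.0244 and 0.0313), and on the log2(TPM + 1) scale the differences were 0.13 and 0.11. The small frameshift deletions of Atepl1-2 need not lower counts. EPL1A and EPL1B rose in the first set (1.01 and 2.00) and did not pass in the second (-0.42 and 0.73). WT replicate 4 stood apart from the other WT libraries in leaf genes such as RCA, the Rubisco activase gene (736 CPM against 3987 to 4642 CPM), so the members' called changes against WT in the second set, and the counts for the other lists, are also given without it. Without WT replicate 4, second-set mutants are set against WT libraries of the first label set only. Genotype and label set then cannot be told apart. Every comparison with WT in the second set shares the same 4 WT libraries, and that of the first set uses 3 of them.

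In WT leaves the members covered a wide range of levels per transcript length. Over WT replicates 5, 7 and 8, KCS10 was highest at 20.0 ± 3.18 TPM (SD, n = 3), followed by KCS9 (13.02 ± 1.53), KCS6 (12.9 ± 3.25) and KCS1 (12.6 ± 2.85), whose ranges overlapped one another. KCR1 (6.13 ± 1.45), CER3 (5.66 ± 0.955) and CER1 (4.91 ± 1.66) formed a middle group, also with overlapping ranges. KCS20 stood at 3.53 ± 0.563 TPM, KCS5 at 0.568 ± 0.224 TPM and KCS2 at 0.0979 ± 0.0129 TPM, each below the range of the gene before it. In WT replicate 4 KCS6 came first (18.1 TPM) and CER1 stood at 11.3 TPM, against 3.91 to 6.83 TPM in the other 3 WT libraries.

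The members moved furthest in Atepl1-2 of the first label set, where 9 of 10 were tested and all 9 fell, while 21.8% of the 18840 genes tested fell and 23.3% rose. Their median log2 fold change was -1.55 against a median of 0.05 over all genes. In the second label set 3 of 10 members (KCS1, KCS6 and KCS10) fell in Atepl1-2 and none rose, where 13.5% of 20733 genes fell and 16.8% rose, so 3 calls of 10 are to be read against that share. In Ateaf1-1 CER1 fell and no member rose (12.5% of all genes fell and 13.6% rose). In glk KCS1 fell and CER1 rose, beside 7.45% of genes that fell and 4.18% that rose. Member medians were -0.38 in Atepl1-2 of the second set, -0.46 in Ateaf1-1 and 0.10 in glk, against 0.05, 0.07 and 0.02 over all genes. In bulk leaf RNA, fewer cells of a type and less RNA per cell cannot be told apart.

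**Figure D1:**
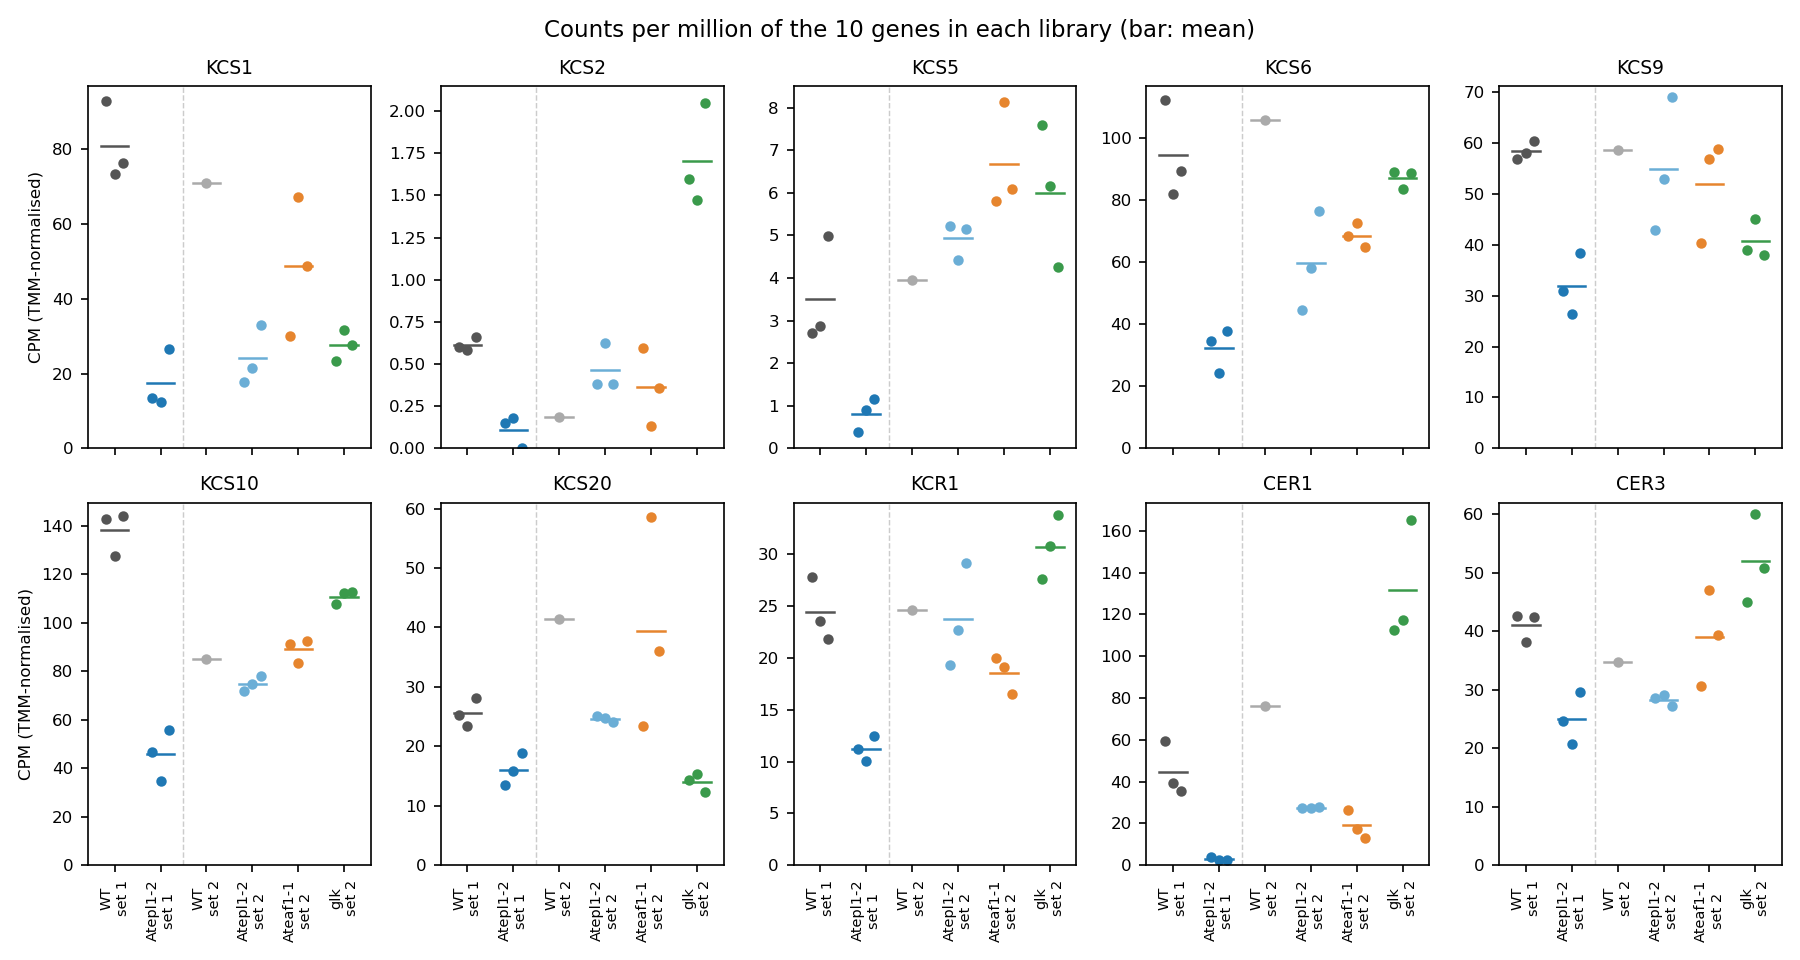
CPM of each of the 10 genes (y axis, linear from 0) in every RNA-seq library, grouped by genotype and label set (x axis), with a bar at the mean of the libraries shown. In the first set (left of the dashed line) every Atepl1-2 library lies below every WT library for all 10 genes, while in the second set the single WT library often lies among the mutants, and CER1 reaches 113 to 165 CPM in glk.

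**Figure D2:**
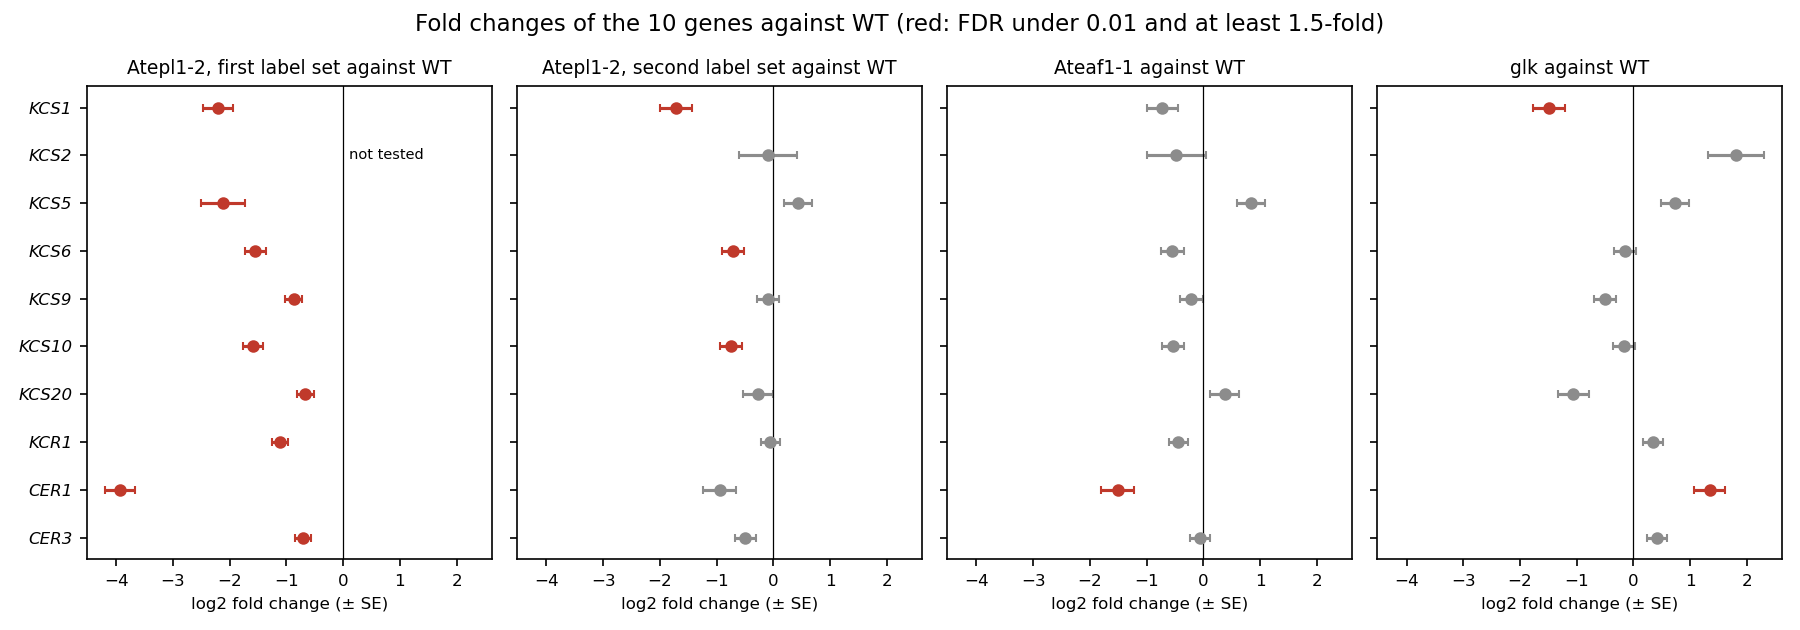
Log2 fold change in CPM against WT (x axis, point) with its standard error (bar) for each gene (y axis) in the 4 comparisons with WT. Red points passed an FDR under 0.01 and 1.5-fold, which holds for 9 genes in Atepl1-2 of the first set and for 3, 1 and 2 genes in the other panels. On the log2(TPM + 1) scale KCS6 and KCS10 of the second-set panel turn positive (0.22 each, with a median of 0.50 over all genes), and KCS20 of the first-set panel stands at 0.04.

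Among the condensing enzymes KCS1, which takes part in wax synthesis and other elongation in leaves and stems, was lower in both Atepl1-2 sets and in glk. In the first set it stood at 93.0, 73.4 and 76.4 CPM in WT and at 13.4, 12.5 and 26.7 CPM in Atepl1-2. WT replicate 4 stood at 71.1 CPM, Atepl1-2 at 17.7, 21.6 and 33.0 CPM in the second set, Ateaf1-1 at 30.1, 67.3 and 48.8 CPM and glk at 23.3, 31.8 and 27.8 CPM. All mutant libraries lay below all WT libraries, and those of Ateaf1-1 spread most. The log2 fold change was -2.21 (SE 0.272, edgeR FDR 8.83e-05) in the first set, -1.71 (SE 0.283, FDR 0.000286) in Atepl1-2 of the second set and -1.49 (SE 0.281, FDR 0.0020) in glk. In Ateaf1-1 it was -0.73 (SE 0.273, edgeR FDR 0.0459), which did not pass. Without WT replicate 4 the Atepl1-2 and glk values were -1.77 and -1.54 (edgeR FDR 0.00022 and 0.00114) and passed. Without glk replicate 1 or replicate 3 the glk value lost its call (edgeR FDR 0.0165 and 0.0127), and with WT replicate 4 as the single control neither the Atepl1-2 nor the glk value passed (FDR 0.0159 and 0.0763).

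KCS6, also called CER6, is the main condensing enzyme for the longest wax precursors of leaves and stems. WT libraries stood at 112, 81.9 and 89.3 CPM in the first set and at 106 CPM in the second. Atepl1-2 stood at 34.6, 24.3 and 37.8 CPM in the first set and at 44.5, 58.0 and 76.3 CPM in the second. Both Atepl1-2 sets lay below all WT libraries, the first by more. The first-set change was -1.55 (SE 0.190, edgeR FDR 8.53e-05), and the second-set change was -0.71 (SE 0.198, FDR 0.00978), just past the threshold. That second-set call was lost without WT replicate 4 (edgeR FDR 0.0103), without WT replicate 5 (0.0271) or 8 (0.0141) and without Atepl1-2 replicate 1 (0.0410) or 3 (0.0399). Ateaf1-1 stood at 68.2, 72.6 and 64.7 CPM (log2 fold change -0.55, edgeR FDR 0.0394, not passed) and glk at 88.9, 83.5 and 88.6 CPM, within the WT range.

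KCS10, known as FIDDLEHEAD for the fused organs of its mutants, was the most abundant member in first-set WT. In WT replicate 4 it came after KCS6 (15.4 against 18.1 TPM). Its WT levels were 143, 127 and 144 CPM in the first set and 85.0 CPM in WT replicate 4. Atepl1-2 stood at 46.7, 34.8 and 55.6 CPM in the first set and at 71.7, 74.5 and 77.9 CPM in the second. The second-set libraries agreed closely and lay below WT replicate 4 by a small margin. KCS10 fell by 1.59 on the log2 scale in the first set (SE 0.177, edgeR FDR 4.51e-05) and by 0.75 in the second (SE 0.196, FDR 0.00686). Against WT replicate 4 alone the second-set change was -0.18 (edgeR FDR 0.574), without WT replicate 4 it was -0.91 (FDR 0.000157), and leaving out any one of the other 6 libraries of that comparison gave an FDR between 0.0122 and 0.0281. Ateaf1-1 (91.3, 83.2 and 92.6 CPM) did not pass (log2 fold change -0.53, edgeR FDR 0.0428), but did without WT replicate 4 (-0.68, FDR 0.00153), and glk stood at 108, 112 and 112 CPM.

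KCS9, which in this species elongates chains of middle length, showed one fall. It stood at 56.9, 58.2 and 60.4 CPM in WT and 30.9, 26.3 and 38.4 CPM in Atepl1-2 of the first set, a change of -0.87 (SE 0.148, edgeR FDR 0.00066). WT replicate 4 stood at 58.6 CPM, Atepl1-2 at 42.9, 53.0 and 69.1 CPM, Ateaf1-1 at 40.3, 57.0 and 58.8 CPM and glk at 39.0, 45.2 and 38.1 CPM. The Atepl1-2 and Ateaf1-1 libraries there overlapped WT, and the glk libraries lay below WT without a call (-0.51, edgeR FDR 0.0795).

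KCS5, a near relative of KCS6 expressed at a low level, fell in the first set, and its second-set mutant libraries lay above WT replicate 4. It stood at 2.70, 2.87 and 4.98 CPM in WT and 0.377, 0.907 and 1.15 CPM in Atepl1-2 of the first set (log2 fold change -2.12, SE 0.381, edgeR FDR 0.000946). Second-set levels were 3.95 CPM in WT replicate 4, 5.23, 4.43 and 5.15 CPM in Atepl1-2, 5.81, 8.12 and 6.08 CPM in Ateaf1-1 and 7.59, 6.15 and 4.26 CPM in glk. The Ateaf1-1 libraries lay above all WT libraries, but the change of 0.84 (SE 0.246) did not pass (edgeR FDR 0.0146). It passed with WT replicate 8 left out (1.03, edgeR FDR 0.00614), with DESeq2 (0.82, FDR 0.00793) and with limma on log2(TPM + 1) (1.02, FDR 0.000314). In these fits 10.9%, 15.8% and 39.99% of all genes passed upward. On the log2(TPM + 1) scale the median of all genes was 0.56, and the KCS5 value lay 0.46 above it.

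KCS2 and KCS20 share a role in elongating chains for suberin and wax, and lay on opposite sides of WT in glk. KCS20 stood at 25.3, 23.4 and 28.1 CPM in WT and 13.5, 15.9 and 18.9 CPM in Atepl1-2 of the first set, a change of -0.67 (SE 0.145, edgeR FDR 0.0029) that passed and that stood at 0.04 on the log2(TPM + 1) scale. The call was lost without WT replicate 5 (edgeR FDR 0.0101) or 8 (0.0123) and without Atepl1-2 replicate 3 (0.0129), and without replicate 1 the change was smaller than 1.5-fold (-0.56). KCS20 stood at 41.4 CPM in WT replicate 4, 25.1, 24.8 and 24.0 CPM in Atepl1-2, 23.4, 58.7 and 36.0 CPM in Ateaf1-1 and 14.4, 15.3 and 12.3 CPM in glk. The glk libraries lay below all WT libraries (log2 fold change -1.06, SE 0.273, edgeR FDR 0.0129, not passed). KCS2 gave only 10, 11 and 11 counts in WT and 4, 4 and 0 counts in Atepl1-2 of the first set and was not tested there. Its levels were 0.599, 0.584 and 0.660 CPM in these WT libraries, 0.188 CPM in WT replicate 4, and 1.59, 1.47 and 2.05 CPM in glk, from 56 to 87 counts. The glk libraries lay above all others (1.81 against WT, SE 0.489, edgeR FDR 0.0169, not passed).

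The reductase gene KCR1, whose product serves every condensing enzyme of the elongase, fell in Atepl1-2 of the first set. It stood there at 27.9, 23.6 and 21.8 CPM in WT and 11.2, 10.0 and 12.5 CPM in Atepl1-2, a change of -1.11 (SE 0.136, edgeR FDR 8.15e-05). Second-set levels were 24.6 CPM in WT replicate 4, 19.3, 22.7 and 29.2 CPM in Atepl1-2, 20.0, 19.2 and 16.5 CPM in Ateaf1-1 and 27.7, 30.8 and 33.8 CPM in glk. The Ateaf1-1 libraries lay below all WT libraries, without a call (-0.44, edgeR FDR 0.0577), while Atepl1-2 and glk overlapped WT.

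CER1, whose product is the core enzyme of alkane formation, had the widest range of the 10 genes. In the first set it stood at 59.4, 39.5 and 35.5 CPM in WT and at 3.88, 2.40 and 2.42 CPM in Atepl1-2. WT replicate 4 stood at 76.3 CPM, the second-set Atepl1-2 libraries at 27.5, 27.3 and 27.6 CPM, Ateaf1-1 at 26.6, 17.3 and 13.1 CPM and glk at 113, 117 and 165 CPM. Both Atepl1-2 sets and Ateaf1-1 lay below all WT libraries and glk lay above all of them. CER1 was 15.3-fold lower in Atepl1-2 of the first set (log2 fold change -3.93, SE 0.259, edgeR FDR 1.91e-06). The second-set Atepl1-2 change was -0.94 (SE 0.288, edgeR FDR 0.0162) and did not pass. DESeq2 (-0.96, FDR 0.0035), the fit without WT replicate 8 (-1.09, edgeR FDR 0.00919) and that with WT replicate 4 as the single control (-1.47, FDR 0.00968) passed it, while without WT replicate 4 it was -0.73 (FDR 0.0330).

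In Ateaf1-1 CER1 fell by 1.51 on the log2 scale (SE 0.295, edgeR FDR 0.00118), and in glk it rose by 1.34 (SE 0.280, FDR 0.00391). The fall in Ateaf1-1 passed with each library left out in turn, with -1.28 (edgeR FDR 0.00145) without WT replicate 4. It did not pass in a fit of the 2 groups alone (-1.53, edgeR FDR 0.0105). The rise in glk lost its call without WT replicate 7 (edgeR FDR 0.0149) or 8 (0.0126), without glk replicate 1 (0.0102) or 3 (0.0266), against WT replicate 4 alone (0.83, FDR 0.234) and in a fit of the 2 groups alone (1.36, FDR 0.0112). Without WT replicate 4 it passed (1.57, edgeR FDR 0.000603). With label set as a model term over 16 libraries the direction turned and nothing was called (-0.69, edgeR FDR 0.425). That fit joined both Atepl1-2 series as 1 group and gave all genotypes the same label set term. The term rests on WT and on these series, in which CER1 stood at 2.40 to 3.88 CPM (first set) and 27.3 to 27.6 CPM (second set). The glk value of that fit therefore depends on the difference between the Atepl1-2 series.

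CER3, the partner of CER1 in the alkane-forming complex, moved less. It stood at 42.6, 38.2 and 42.4 CPM in WT and 24.7, 20.8 and 29.7 CPM in Atepl1-2 of the first set (-0.71, SE 0.145, edgeR FDR 0.0020). Second-set levels were 34.7 CPM in WT replicate 4, 28.5, 29.0 and 27.3 CPM in Atepl1-2, 30.6, 47.0 and 39.3 CPM in Ateaf1-1 and 45.0, 60.0 and 50.8 CPM in glk. Atepl1-2 lay below all WT libraries (-0.49, edgeR FDR 0.0372) and glk above them (0.41, FDR 0.112), neither with a call, and Ateaf1-1 overlapped WT.

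Libraries that do not overlap between groups were frequent among all genes as well. In Atepl1-2 of the first set all 9 members tested lay below WT, as did 32.9% of the genes tested there, and so did the untested KCS2, while none lay above WT (35.6% of genes). In the second set 5 of 10 lay below WT in Atepl1-2 (19.5% of all genes tested), 4 in Ateaf1-1 (17.9%) and 3 in glk (18.1%), while none lay above WT in Atepl1-2 (25.4%), 1 in Ateaf1-1 (24.6%) and 3 in glk (17.9%). Atepl1-2 lay below glk for 5 members (27.6%) and above it for 1 (32.4%), Ateaf1-1 below glk for 5 (25.4%) and above it for 1 (31%), and Atepl1-2 below Ateaf1-1 for 3 (14%) and above it for 1 (16.3%).

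The scale of the values bears on these directions. On the log2(TPM + 1) scale the median of all genes shifted by 0.50 in Atepl1-2 of the second set, 0.56 in Ateaf1-1, 0.27 in glk and 0.38 in Atepl1-2 of the first set. With limma on that scale 2.05% of genes fell and 36.7% rose in Atepl1-2 of the second set, 2.12% and 39.99% in Ateaf1-1, 2.24% and 6.52% in glk, and 5.42% and 34.6% in the first set. The member medians were -0.39 in the first set and 0.30, 0.51 and 0.40 in Atepl1-2, Ateaf1-1 and glk of the second. KCS1 in Atepl1-2 of the second set stayed negative (-0.78, limma FDR 0.00258). KCS6 and KCS10 turned to 0.22 each, which is 0.28 below the median of all genes. CER1 stood at 0.12 in Atepl1-2 of the second set. It stayed at -1.93 (limma FDR 0.000123) in Atepl1-2 of the first set, at -0.33 in Ateaf1-1 (FDR 0.405, not passed) and at 1.84 in glk (FDR 0.0034). The share of counts on chloroplast genes, given above, was lower in Atepl1-2 and Ateaf1-1 than in WT, and its part in the shift was not tested.

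The effect of Atepl1-2 was compared between the label sets in a fit of all 16 libraries, where the second-set effect rests on WT replicate 4 alone. CER1 fell by 2.46 more on the log2 scale in the first set (SE 0.494, edgeR FDR 0.00959), the single member past an FDR of 0.01, against 1.5% of 22244 genes. KCS10 (-1.40, edgeR FDR 0.0120), KCS5 (-2.44, FDR 0.0211) and KCR1 (-1.06, FDR 0.0486) came next. The count of 1 became 0 without any of the 3 first-set WT libraries, without Atepl1-2 replicate 1 or 3 of the first set and without replicate 3 or 4 of the second, and 2 without replicate 1 of the second. Beyond the labels, WT replicate 4 differed from first-set WT in PDF1, the protodermal factor gene (4.79 CPM against 0 to 0.476 CPM), and in the mesophyll gene RCA. With 1 WT library in the second set, these values cannot tell the set from that library. The label set and the identity of the WT plants cannot be told apart.

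Between the mutants, no member passed in Atepl1-2 against Ateaf1-1 with edgeR or DESeq2 (0.0482% of genes were lower and 0.082% higher). Of the 10 members, 3 had an unadjusted p under 0.05 there. KCS1 differed most (-0.98, SE 0.290, edgeR FDR 0.0660), from 17.7 to 33.0 CPM in Atepl1-2 against 30.1 to 67.3 CPM in Ateaf1-1, ranges that overlap. Against glk, 3 members were lower in Atepl1-2 and none higher (11.3% and 15.6% of genes). They were CER1 (-2.28, edgeR FDR 6.56e-05), KCS2 (-1.90, FDR 0.00843) and CER3 (-0.90, FDR 0.00188). KCS2 lost its call without any one of the 6 libraries (edgeR FDR from 0.0160 to 0.0351), CER3 without glk replicate 2 (0.0126), and both did with limma on log2(TPM + 1). In Ateaf1-1 against glk, CER1 (-2.85, edgeR FDR 1.34e-05), KCS2 (-2.28, FDR 0.00366) and KCR1 (-0.78, FDR 0.00473) were lower and KCS20 was higher (1.44, FDR 0.00161), beside 9.58% and 12.1% of genes. KCR1 lost its call without any one library but glk replicate 1 (edgeR FDR from 0.0104 to 0.0262), KCS2 without Ateaf1-1 replicate 2 or 3 or glk replicate 1 or 3 (from 0.0108 to 0.0181), and KCS20 without glk replicate 3 (0.0116). These 3 comparisons set second-set mutants against one another, and their fold changes contrast no WT library. Their standard errors and FDR values come from the fit of 13 libraries, which also held WT of both label sets. The 3 comparisons share mutant libraries with one another.

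**Figure D3:**
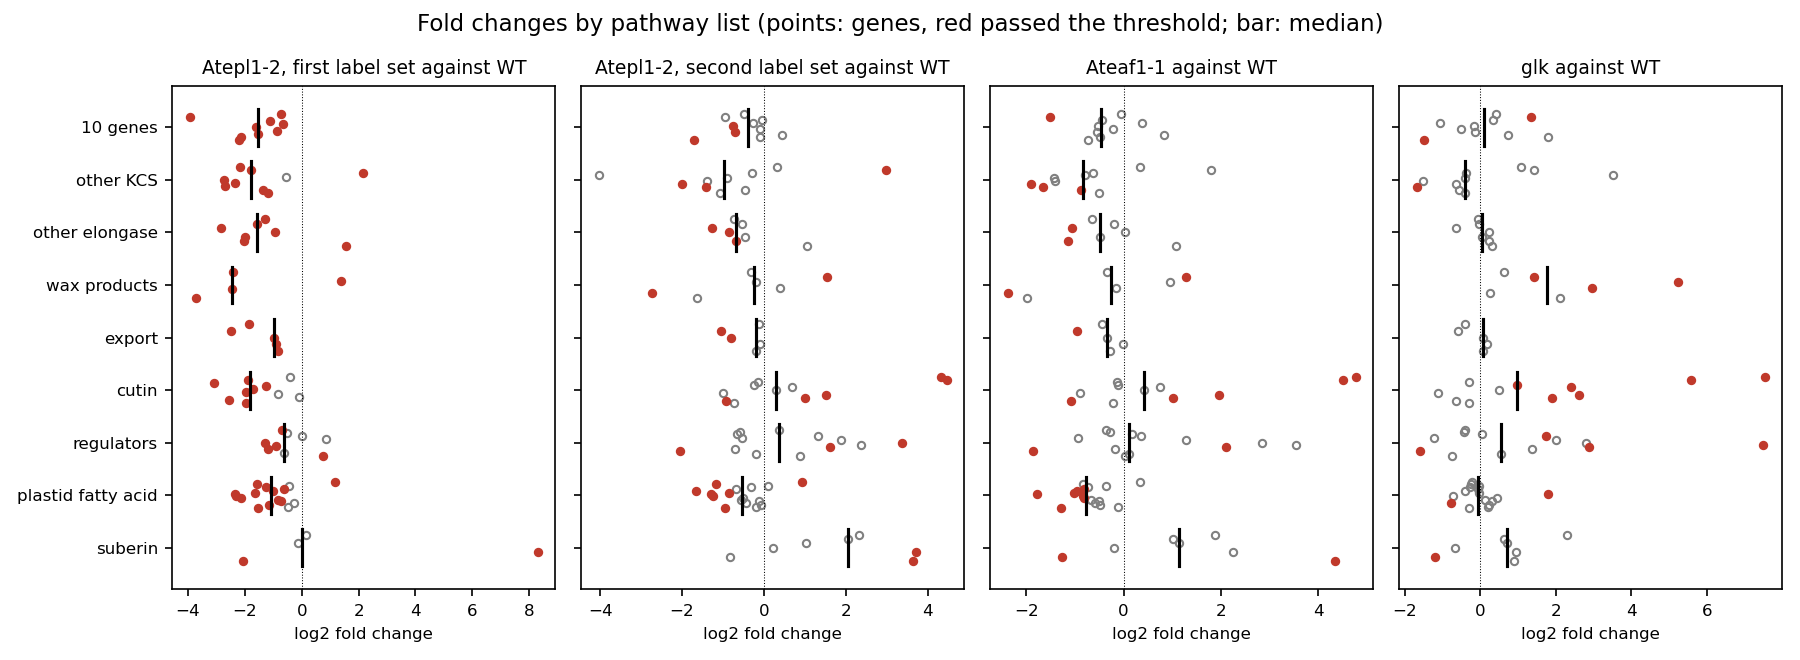
Log2 fold change in CPM against WT (x axis) of every tested gene (points) of 9 lists (y axis) in the 4 comparisons with WT, red where the gene passed an FDR under 0.01 and 1.5-fold, with a bar at the list's median. In Atepl1-2 of the first set the medians of the 10 genes, other KCS genes, other elongase genes and export genes lie at -1.55, -1.78, -1.58 and -0.97, and in glk the wax-product genes have a median of 1.77.

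Other genes of the pathway were followed as lists, whose counts are to be read against the shares of all genes called. In CPM, 21.8% of genes fell and 23.3% rose in Atepl1-2 of the first set, and 13.5% and 16.8% in that of the second. In Ateaf1-1 these shares were 12.5% and 13.6%, and in glk 7.45% and 4.18%. Of the 14 other KCS genes, 9 were tested in the first set, where 7 fell and 1 rose. The largest falls were those of KCS12 (-2.74), KCS8 (-2.69) and KCS11 (-2.33), with edgeR FDR values of at most 5.97e-05, and KCS14 rose from 0.106 to 0.120 CPM in WT (2 counts in each library) to 0.492 to 0.589 CPM. In the second set 10 were tested, of which 2 fell in Atepl1-2 (KCS11, -2.01, and KCS8, -1.41), 3 in Ateaf1-1 and 1 in glk (KCS8, -1.68), and KCS17 rose in Atepl1-2 (2.99) from levels of at most 0.240 CPM in WT. KCS8 was thus lower in all 4 comparisons, which share WT libraries. On the log2(TPM + 1) scale 4 of these KCS genes fell in the first set and none rose (5.42% and 34.6% of all genes). The medians of the second set lay between -0.03 and 0.05.

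Of 7 other elongase genes, 6 fell and 1 rose in Atepl1-2 of the first set. The falls included CER2 (-2.85), which is needed together with KCS6 for the longest chains, the dehydratase PAS2 (-2.03) and the enoyl reductase CER10 (-1.99), and KCR2, a second reductase gene, rose (1.56, edgeR FDR 0.00882). Of the same genes 3 fell in second-set Atepl1-2 (CER2, ACC1 and PAS2), 2 in Ateaf1-1 (PAS2 and CER2) and none in glk. All 5 genes of cuticle export fell in Atepl1-2 of the first set, led by the lipid transfer protein gene LTPG1 (-2.47, edgeR FDR 4.63e-06), which also fell in Atepl1-2 of the second set (-1.05) and in Ateaf1-1 (-0.96). The transporter gene ABCG32 fell in both Atepl1-2 sets (-0.97 and -0.82), the second of which turned to 0.10 on the log2(TPM + 1) scale, as did LTPG1 in Ateaf1-1 (0.17), PAS2 and ACC1 in Atepl1-2 (0.24 and 0.08) and CER2 in Ateaf1-1 (0.04). On that scale 4 of the 7 elongase genes and 2 of the 5 export genes fell in the first set and none rose (5.42% and 34.6% of all genes). In the second set no gene of either list fell (2.05 to 2.24% of all genes). There 3 export genes rose in Atepl1-2 (36.7% of all genes) and 2 in Ateaf1-1 (39.99%).

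Among 6 other genes of wax products, 4 were tested in the first set. CER4, which makes the primary alcohols, fell there (-3.72), as did the wax ester synthase gene WSD1 (-2.46) and the acyl-CoA synthetase gene LACS2 (-2.43), and LACS1 rose (1.39). CER4 also fell in Atepl1-2 of the second set (-2.73) and in Ateaf1-1 (-2.38). LACS1 rose in all 4 comparisons with WT, on both the CPM and the TPM scale, by 1.54 in Atepl1-2 of the second set, 1.28 in Ateaf1-1 and 1.42 in glk. In glk 3 of 6 rose, which were LACS1, WSD1 (2.97, from 2.38 to 3.36 CPM in WT to 17.7 to 32.5 CPM) and MAH1 (5.23), the hydroxylase of alkanes, from at most 1.19 CPM in WT to 5.89 to 23.2 CPM. Of 16 genes of fatty acid synthesis in the plastid, which feeds the elongase, 12 fell and 1 rose in Atepl1-2 of the first set, 6 fell and 1 rose in Atepl1-2 of the second, 7 fell in Ateaf1-1, and 1 fell and 1 rose in glk. CAC1B, a biotin carrier subunit gene of plastid acetyl-CoA carboxylase, fell in both Atepl1-2 sets (-2.35 and -1.28) and in Ateaf1-1 (-1.79) and rose in glk (1.81). On the log2(TPM + 1) scale 6 of the 16 plastid genes fell and 1 rose in the first set (5.42% and 34.6% of all genes). In the second set none fell, and 4, 3 and 2 rose in Atepl1-2, Ateaf1-1 and glk (36.7, 39.99 and 6.52% of all genes).

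Cutin and regulator genes were less uniform. Of 11 cutin genes 7 fell and none rose in Atepl1-2 of the first set, led by HTH (-3.09), while in the second set 1 fell and 4 rose in Atepl1-2 and in Ateaf1-1, and 6 rose in glk. On the log2(TPM + 1) scale 4 fell in the first set (5.42% of all genes). In the second 4, 5 and 6 rose in Atepl1-2, Ateaf1-1 and glk (36.7, 39.99 and 6.52% of all genes). DCR, an acyltransferase gene of cutin synthesis, rose in Atepl1-2 of the second set (4.47), Ateaf1-1 (4.51) and glk (5.56), from under 1 CPM in every WT library. MYB96, a transcription factor that activates wax genes including several KCS genes, fell in all 4 comparisons, by 1.19 on the log2 scale in Atepl1-2 of the first set, 2.06 in Atepl1-2 of the second, 1.87 in Ateaf1-1 and 1.59 in glk. All 4 values stayed negative on the log2(TPM + 1) scale and none passed there. MYB106, a regulator of cuticle development, rose by 1.62, 2.10 and 2.87 in Atepl1-2, Ateaf1-1 and glk of the second set. Of the 13 regulator genes 4 fell and 1 rose in the first set, 1 fell and 2 rose in Atepl1-2 of the second, 1 fell and 1 rose in Ateaf1-1, and 1 fell and 3 rose in glk. SHN1, an activator of cuticle genes, had 0 CPM in all 4 WT libraries and 0.292 to 0.729 CPM in glk. Of 7 suberin genes, mostly near the detection limit in leaves, FAR1 fell in Atepl1-2 of the first set (-2.07), in Ateaf1-1 (-1.26) and in glk (-1.20), while FAR4 and GPAT5 rose. FAR4 stood at 0 CPM in first-set WT and 1.39 to 2.63 CPM in Atepl1-2, and in the second set rose in Atepl1-2 to 0.505 to 1.05 CPM, from at most 0.157 CPM in WT. GPAT5, at most 0.0940 CPM in WT, rose in Atepl1-2 of the second set (0.314 to 0.645 CPM) and in Ateaf1-1 (0.230 to 1.60 CPM). On the log2(TPM + 1) scale FAR4 in the first set was the one suberin call.

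Without WT replicate 4, 66 of the 68 called changes of these lists against WT in the second set were called in the same direction, the exceptions being CYP86A4 and WRI1 in Atepl1-2, and 29 more passed. That fit, added after the data had been seen, set second-set mutants against first-set WT only, so genotype and label set cannot be told apart. It called 16.8% of all genes down and 19.8% up in Atepl1-2, 15.7% and 17.3% in Ateaf1-1, and 11.8% and 8.41% in glk. Of the 14 other KCS genes it called 5 down and 2 up in Atepl1-2, 6 down and 1 up in Ateaf1-1, and 2 down and 1 up in glk, and KCS8 fell in each.

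**Figure D4:**
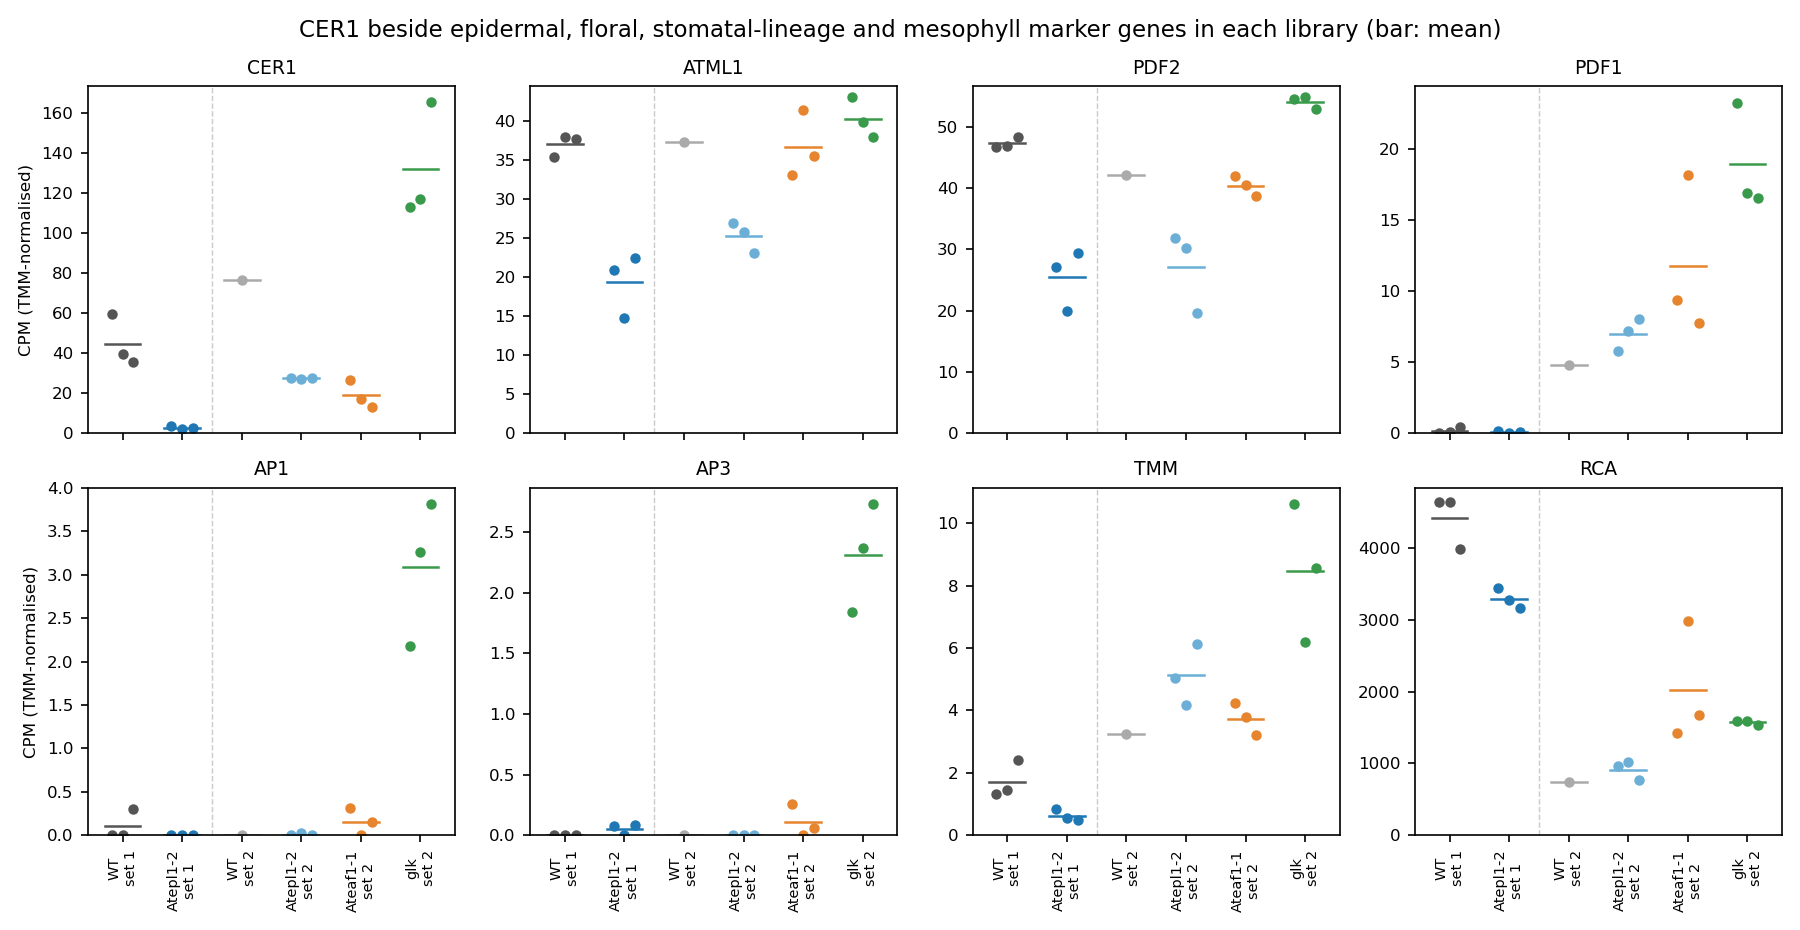
CPM (y axis, linear from 0) of CER1 and of marker genes of the epidermis (ATML1, PDF2, PDF1), flowers (AP1, AP3), the stomatal lineage (TMM) and mesophyll (RCA) in every library by genotype and label set (x axis), with a bar at the mean of the libraries shown. AP1 and AP3 stand at 1.84 to 3.81 CPM in glk and at 0.318 CPM or less elsewhere, and ATML1 and PDF2 are lowest in Atepl1-2 of the first set.

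Markers of the cell types that express wax genes moved with some of these results. ATML1 and PDF2, regulators of epidermal identity, stood at 35.4 to 37.9 and 46.7 to 48.3 CPM in first-set WT and at 14.7 to 22.5 and 20.0 to 29.4 CPM in Atepl1-2, and both fell (-0.93 and -0.89, edgeR FDR 0.000636 and 0.000643). Of the 4 epidermal markers 3 were tested there, of which 2 fell and none rose. In Atepl1-2 of the second set 1 of 4 fell, PDF2 (-0.77, edgeR FDR 0.00283, and 0.14 on the log2(TPM + 1) scale), and 1 rose, GL2, a regulator of trichomes and root hairs (1.65, edgeR FDR 0.00068). There ATML1 did not pass the fold limit (-0.56), and PDF1 lay above all WT libraries without a call (2.22, edgeR FDR 0.0344) and passed without WT replicate 4 (5.14). GL2 (1.66) and PDF1 (2.93) rose in Ateaf1-1, and PDF1 rose in glk (3.67), where it stood at 16.6 to 23.3 CPM. In the first set KCS9, CER3 and KCS20 fell by less than ATML1 and PDF2, and the other 6 members tested fell by more. In the second set the falls of KCS6 and KCS10 (-0.71 and -0.75) were near that of PDF2, and that of KCS1 (-1.71) was larger. The part of these markers in the members' values was not tested.

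Floral and young-tissue markers moved with the CER1 and KCS2 values of glk. AP1 and AP3, which mark floral meristems and petals with stamens, stood at 2.18 to 3.81 and 1.84 to 2.73 CPM in glk, at 0 to 0.300 CPM and 0 in WT, and at 0.318 CPM or less in the other mutants, while AG, the third floral marker, did not pass (1.29, edgeR FDR 0.197). Of 6 stomatal lineage markers 3 rose in glk, TMM (2.01), SPCH (2.24) and EPF2 (3.31). In Atepl1-2 of the second set, where neither CER1 nor KCS2 rose, TMM (1.26) and EPF2 (3.04) rose as well, and in the first set TMM fell (-1.44). Their part in the glk values of CER1, KCS2 and the wax-product genes was not tested. The root marker PYK10 rose in all 4 comparisons with WT, while CASP1, the other root marker, stood at 0.164 CPM or less in every library. Guard cell markers did not pass in the second set, and 1 of 4 fell in the first. Of 3 mesophyll markers 2 fell in each Atepl1-2 set (LHCB1.1 in both, with RBCS1A in the first and RCA in the second), none passed in Ateaf1-1 and LHCB1.1 fell in glk (-2.36). Without WT replicate 4 all 3 fell in each of the second-set comparisons. The phloem gene SUC2 fell in all 4 comparisons with WT (from -1.67 to -0.96), SWEET11 fell in glk (-1.09) and rose in the first set (0.83), and SWEET12 rose in both Atepl1-2 sets (1.58 and 1.45). All 23 called marker changes of the second set were also called without WT replicate 4, and 16 more passed. In that fit genotype and label set cannot be told apart. The part of these markers in the members' values was not tested either.

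Over the 16 libraries the members' levels ordered the libraries in similar ways only in part. KCR1 and CER1 were closest (Spearman rho of log2 CPM 0.93), followed by KCS6 with CER1 and KCS6 with KCS10 (0.84 each), and KCS2 with KCS20 were farthest apart (-0.30). These correlations share 4 genotypes, 2 label sets and the scaling, and describe these libraries only. Among 21094 genes, those most like CER1 were AT2G28605 and CBL10 (rho 0.98 each) and AT5G40500 (0.97). Most like KCS6 were AT3G07510 (0.96), NARA5 (0.96) and AT5G61240 (0.96), and most like CER3 were PSF2 (0.94), MSH7 (0.93) and AT5G56590 (0.92).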

How the data were processed

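RNA of 16 libraries was sequenced, and 25 ChIP-seq libraries of the series were not used here, since their deposited table holds totals per library only. The authors trimmed reads with BBDuk2, used Salmon 0.13.1 (version from the submitters' processing notes) on Araport11 transcripts, correcting sequence-specific and GC bias, and deposited whole-number estimated counts of each gene. TPM of the same run were deposited too, summing to 955462 to 979577 per library in the first label set and 1000000 in the second. No 2 libraries held identical values.

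The counts were tested with edgeR 4.0.16 in R 4.3.3 (filterByExpr, TMM, glmQLFit, glmQLFTest, Benjamini-Hochberg FDR over all genes tested). WT, Atepl1-2 of the second set, Ateaf1-1 and glk entered 1 fit (13 libraries, 20733 genes) and the first set another (6 libraries, 18840 genes). Standard errors were derived from the fold change and the F statistic. Members and gene lists were chosen with earlier results of these data known. All 10 members are described in full. From each other list at most the 3 genes with the largest change among those past the threshold were named, per direction and comparison with WT, besides all marker and check genes and, for KCS6, CER1 and CER3, the 3 genes of highest Spearman correlation. The marker lists also held AG, GL2, FAMA, MUTE, EPF1, EPF2, MYB60, HT1, KAT1, AT1G22690, RBCS1A, LHCB1.1, SUC2, APL, SWEET11 and SWEET12. The fits were tested on simulated counts. P-values of the first-set fit measure the spread between biological repeats, each a pool of plants. In the fit of 13 libraries the WT group joined both label sets without a term for them. The spread there also holds any difference between the sets.

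Alternatives were DESeq2 1.42.0, its size factors, no filter on low counts, limma-voom and limma 3.58.1 on log2(TPM + 1) or log2(TPM + 0.1), a mean TPM of at least 1, an FDR under 0.05, organelle genes left out, other choices of libraries, a replicate block and each library left out in turn. TPM counts for the pathway lists, and a fit of all lists without WT replicate 4, were added after the data had been seen. Sequences and coordinates come from the RefSeq genome TAIR10.1, and the study names TAIR10. Figures were drawn with matplotlib.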

Additional observations from a re-analysis of the deposited data

Results flagged for a closer look

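The CER1 effect of Atepl1-2 differed between the label sets by -2.46 on the log2 scale, first minus second (SE 0.494, edgeR FDR 0.00959 for the difference itself). CER1 stood at 2.40 to 3.88 CPM in Atepl1-2 of the first set and 27.3 to 27.6 CPM in the second, and was lower than in every WT library in 6 of 6 libraries. The second-set control is WT replicate 4 alone (76.3 CPM), and the difference passed neither without any one of WT replicates 5, 7 and 8 nor without several of the mutant libraries.

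KCS2 in WT had 1 library far from the other 3, WT replicate 4 at 0.188 CPM against 0.584 to 0.660 CPM, with a gap of 0.839 of the whole range. It rests on 6 to 11 counts per library. It was the only one of the 10 genes that stood out in this way. Chance gives about 1 in 20 for each single gene, and 10 genes were screened, so 1 such gene says little. WT replicate 4 is also the only WT library of the second label set.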

How the results depend on the processing

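Over 30 alternatives and 7 comparisons, 1102 of 1268 fold changes of members stayed on their side of the threshold, of which 85 changed sign without a call in either fit, so that 1017 kept both. Of the others, 75 called changes no longer passed, 66 passed in the alternative and 25 reversed. Of these 25, 21 arose on a TPM scale, and of the 7 on log2(TPM + 1) without a minimum 4 kept the new sign relative to the median of all genes. The cause of the differences was not tested. Counts below are of members, and every alternative named was run with the rest unchanged. Percentages beside them are the shares of all genes tested that were called in the same direction.

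With limma on log2(TPM + 1), log2(TPM + 0.1) or log2(TPM + 1) at a mean TPM of at least 1, Atepl1-2 of the second set had 1 member down (2.05 to 2.90%) and 3 up (36.7 to 46.2%) against WT. On these scales Ateaf1-1 had 0 down (2.12 to 2.87%) and 4 up (39.99 to 51.6%), and glk had 3 up (6.52 to 8.85%). The first set had 4, 5 and 4 down (5.42, 8.35 and 7.14%). Atepl1-2 had 1 down (3.28 to 4.05%) and 1 up (21.1 to 25.4%) against glk on each of these scales. Ateaf1-1 had 3 up against glk on each (16.8 to 21.1%), with 1 down on both log2(TPM + 1) settings (2.98 and 3.55%). Under log2(TPM + 1), with and without the minimum, KCS6 (0.22), KCS10 (0.22), KCS9 (0.66) and KCR1 (0.74) reversed in Atepl1-2 of the second set, KCS9 (0.69) and CER3 (0.84) in Ateaf1-1 and KCS20 (0.037) in the first set. Under log2(TPM + 0.1) the same 7 values were 0.23, 0.23, 0.70, 0.82, 0.72, 0.94 and 0.046.

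Against WT, Atepl1-2 of the second set had 1 down without a filter on low counts (9.73%) and 1 in a fit of the 2 groups alone (8.64%). With label set as a model term over 16 libraries, both Atepl1-2 series entered as 1 group, and that group had 6 down (16.8%). With the first-set Atepl1-2 libraries in place of the second-set ones 8 were down (17.0%), and KCS5 reversed (-2.15). Ateaf1-1 had 1 up with DESeq2 (15.8%), and 2 down and 1 up at an FDR under 0.05 (18.3% and 20.5%). It had 0 down in a fit of 2 groups (8.72%) and 3 down with label set as a model term (11.5%). For glk, DESeq2 gave 2 down and 2 up (12.01% and 5.87%), and DESeq2 size factors gave 2 down (8.01%). An FDR under 0.05 gave 2 down and 3 up in glk (12.7% and 9.06%). A fit of 2 groups gave 2 down and 0 up (6.46% and 4.3%). With WT replicate 4 as the single control, the glk values of KCS1 and CER1 were -1.32 and 0.83. With label set as a model term glk had 2 down and 0 up (4.83% and 1.92%), and CER1 reversed (-0.69, edgeR FDR 0.425). Between mutants, the first-set Atepl1-2 libraries gave 7 down against Ateaf1-1 (7.72%), with KCR1 (-0.71) and CER1 (-2.69) reversed, and 7 down against glk (18.9%). Atepl1-2 against glk had 1 up at an FDR under 0.05 (21.6%), in a fit of 2 groups (17.9%) and with label set as a model term (18.9%). The label set term gave 1 down in Ateaf1-1 against glk (10.2%).

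With 1 library left out in turn, members down ranged from 1 to 2 in Atepl1-2 of the second set (8.69 to 16.8%), 1 to 2 in Ateaf1-1 (8.78 to 15.7%) and 0 to 1 in glk (3.43 to 11.8%). They ranged from 8 to 10 in the first set (18.2 to 21.0%), 1 to 3 in Atepl1-2 against glk (7.43 to 11.4%) and 1 to 2 in Ateaf1-1 against glk (6.02 to 7.68%). Members up ranged from 0 to 1 in Ateaf1-1 (10.2 to 17.3%), in glk (1.75 to 8.41%) and in Ateaf1-1 against glk (8.27 to 11.1%). The count of members whose Atepl1-2 effect differed between label sets ranged from 0 to 2.

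Replicate numbers of Ateaf1-1 and glk did not pair the libraries (correlations of same-numbered deviations 0.02, 0.14 and -0.06). For Atepl1-2 numbers 1 and 3 they were 0.27 and -0.14 with Ateaf1-1, and 0.24 and 0.04 with glk. Differently numbered Atepl1-2 pairs reached 0.30 with Ateaf1-1 and 0.11 with glk. A replicate block gave 2 members up in Ateaf1-1 against glk in place of 1 (15.8%) and 0 called in Atepl1-2 against Ateaf1-1 (0%). In Atepl1-2 against glk it left 3 down (10.3%), losing KCS2 (-2.08, edgeR FDR 0.0160) and adding KCS6 (-0.80, FDR 0.00743). No paired analysis was possible against WT because WT shares at most 1 replicate number with a mutant. Depth limits KCS2 most, with 0 to 11 counts per library in WT and first-set Atepl1-2.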
